A study of Mus musculus with 60 samples.

Results

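A set of 60 genes of the collagens, laminins and other proteins of the extracellular matrix were followed in the hippocampus of NLGF and WT mice at weeks 3, 8 and 24. They were chosen by symbol from a table of 35976 gene symbols: all collagen chains, all laminin chains, the nidogens Nid1 and Nid2, the proteoglycans Hspg2, Agrn, Bgn and Dcn, and Eln, Fbn1, Fn1 and Sparc. Of the 65 symbols that matched, 60 had a mean of at least 0.5 CPM (counts scaled to a library total of 1 M) over the 60 samples and were kept. Just inside this limit were Col6a4 at 0.576 CPM and Col2a1 at 0.984 CPM, and just outside it was Col9a1 at 0.452 CPM. The rule used symbols and the mean level over all samples, and no difference between groups. It was set with earlier results of these data known. NLGF mice are an App knock-in line (AppNL-G-F) in which the endogenous App gene carries a humanized amyloid-β stretch with 3 familial Alzheimer's disease mutations, so that App is expressed from its own locus. WT mice are wild type. Each genotype and age had 10 samples, 5 labelled male and 5 labelled female, with no treatment named, and RNA came from frozen aliquots of bulk hippocampus. The labels name no animal for a sample, and a p-value therefore reflects how far these samples spread, which may be technical in part.

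Libraries held 17.8 to 73.4 M counts, with a median of 26.1 M. At week 3, 7 NLGF libraries (females 1, 4 and 5 and males 2 to 5) held 54.0 to 73.4 M, and no WT library exceeded 50 M, so that genotype and this kind of library cannot be told apart in those 7. These libraries, called deeply sequenced below, differed in more than depth. Bc1 RNA was at 1776 to 5815 CPM in them and at 2.25 to 16.3 CPM in the other 3 NLGF libraries of week 3. The library labelled NLGF week 3 male 2 has a sex label that conflicts with its counts, and the library titled NLGF week 8 female 1 carries an age field of 3 weeks. Counts of called genes over the 60 that rest on these libraries are given with and without them. Counts within classes and within lists of other genes are given with all libraries. The amount of neighbouring tissue differed between libraries: summed CPM of 14 choroid plexus markers ran between 35.9 and 11322 over the 60 libraries, and summed CPM of 24 markers of meningeal and perivascular fibroblasts ran between 153 and 1055. Among these 24, Igf2, Pdgfra and Igfbp2 had the highest medians, 90.3, 74.7 and 34.5 CPM. The fibroblast sum weighs these 3 genes most and may not follow fibroblasts alone.

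A basement membrane is a thin sheet of matrix that wraps blood vessels and lines the surface of the brain. Laminin trimers of an α, a β and a γ chain and networks of type IV collagen form its main layers, and nidogens and the heparan sulfate proteoglycans perlecan (Hspg2) and agrin (Agrn) link them. In the brain these chains come mainly from endothelial cells, pericytes and other mural cells, astrocytes and fibroblasts of the meninges and of larger vessels, while fibrillar collagens such as types I and III are products of fibroblasts.

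Type IV collagen genes lie head to head in pairs, and the start of the pair with the most RNA here is shown because its members fell together with age. On mm10 the annotated starts of Col4a1 (chromosome 8, position 11312826, minus strand) and Col4a2 (position 11312805, plus strand) overlap by 22 bases. The windows of 250 bases before to 50 bases after each start, from RefSeq on GRCm38.p6, share 78 bases, in capitals. Col4a1 is at chr8:11312777-11313076 on the minus strand and Col4a2 at chr8:11312555-11312854 on the plus strand. The window of Col4a4, at chr1:82586800-82587099 on the minus strand, is set beside them as that of a pair for which no change with age was called. Its capitals are the 71 bases between its start and that of Col4a3 (start at position 82586921). The third pair, Col4a6 and Col4a5, has starts 1309 bases apart, and both genes were called lower with age. Whether the sequence at these starts bears on the change with age was not tested.
Col4a1: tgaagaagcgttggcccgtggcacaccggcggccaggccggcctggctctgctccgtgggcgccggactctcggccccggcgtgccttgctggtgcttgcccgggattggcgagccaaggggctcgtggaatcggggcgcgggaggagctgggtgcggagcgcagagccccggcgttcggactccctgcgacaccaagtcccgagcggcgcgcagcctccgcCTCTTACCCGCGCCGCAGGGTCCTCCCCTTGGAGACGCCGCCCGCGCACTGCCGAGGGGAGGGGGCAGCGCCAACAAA
Col4a2: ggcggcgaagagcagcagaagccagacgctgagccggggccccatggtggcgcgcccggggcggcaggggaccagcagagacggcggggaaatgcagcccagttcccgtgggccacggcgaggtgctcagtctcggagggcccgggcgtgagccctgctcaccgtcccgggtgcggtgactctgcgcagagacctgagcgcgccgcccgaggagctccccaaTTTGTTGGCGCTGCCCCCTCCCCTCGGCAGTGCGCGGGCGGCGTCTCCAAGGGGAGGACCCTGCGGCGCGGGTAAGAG
Col4a4: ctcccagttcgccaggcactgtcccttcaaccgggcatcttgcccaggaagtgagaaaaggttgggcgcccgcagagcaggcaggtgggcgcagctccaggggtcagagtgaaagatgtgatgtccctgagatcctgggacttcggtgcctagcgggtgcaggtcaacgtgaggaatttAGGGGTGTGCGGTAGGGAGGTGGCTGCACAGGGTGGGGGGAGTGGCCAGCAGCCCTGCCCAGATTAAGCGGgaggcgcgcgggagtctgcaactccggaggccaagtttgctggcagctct
The letters GGGCGG (GC box, read on both strands, matches to other motifs not excluded) occur once in the Col4a1 window, 3 times in the Col4a2 window and 0 times in the Col4a4 window. TATAAA occurs in none of these 3 windows. A RefSeq window was found for 41 of the 60 genes. GGGCGG was present in 70.7% of these 41 windows and in 46.3% of the 17492 windows of protein-coding genes. The share with CCAAT on either strand was 34.1% of the 41 windows and 39% of the 17492. The share with TATAAA was 9.76% of the 41 and 13.3% of the 17492.

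Per kb of exon, Sparc, a collagen-binding matricellular protein, had the highest mean level of the 60 genes over all samples, 83.0 CPM per kb. It was followed by Agrn with 22.1, Col4a2 with 9.53, Fn1 (fibronectin) with 9.24, Lamc1 (laminin γ1) with 9.21 and Col4a1 with 8.27 CPM per kb. The lowest level was that of Col6a4, 0.0673 CPM per kb. Among γ chains Lamc1 held 70.2% of the summed level per kb in NLGF samples and 68.0% in WT samples at week 24. Among β chains Lamb1 and Lamb2 held most of the level, 46.0% and 52.7% in NLGF samples and 42.5% and 56.0% in WT samples at week 24. Lamb3, a chain of the epithelial laminin-332, held 1.27% of the β-chain level in NLGF samples and 1.49% in WT samples at that age.

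**Figure D1:**
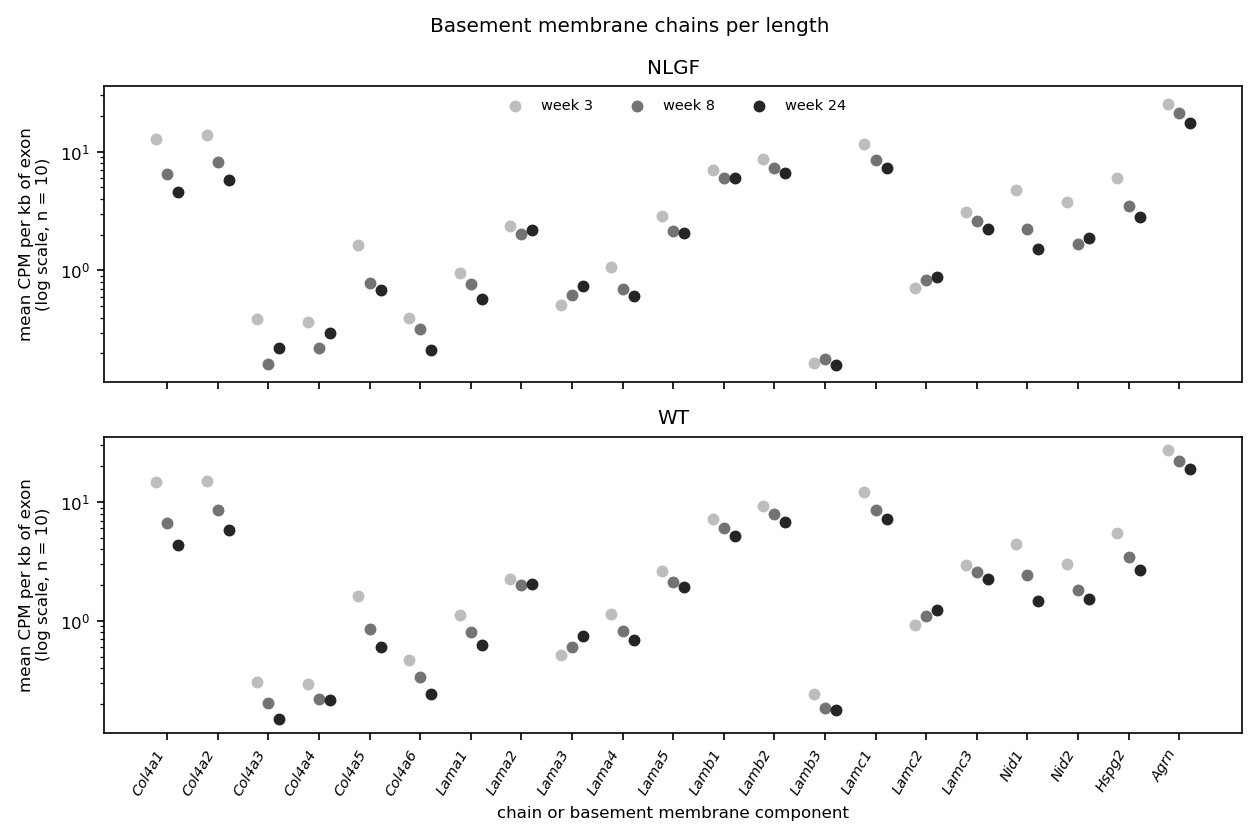
Mean level (CPM per kb of exon, log axis) of 21 basement membrane genes at weeks 3, 8 and 24 (grey shades), with NLGF above WT and 10 libraries behind each point. At week 3 the points of Agrn, Col4a2, Lamc1 and Col4a1 lie highest, and those of Col4a1 and Col4a2 lie lower at later ages in both genotypes.

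RNA of these genes was lower at later ages in both genotypes. In NLGF samples the summed CPM of the 60 genes ran between 1465 and 2871 at week 3 (median 1797), between 1235 and 1583 at week 8 (median 1397) and at week 24 between 1095 and 1714 (median 1229). In WT samples it ran between 1820 and 2875 at week 3 (median 2214), between 1045 and 1800 at week 8 (median 1475) and between 1128 and 1573 at week 24 (median 1237). Between week 24 and week 3, edgeR's quasi-likelihood test (Benjamini-Hochberg adjusted p under 0.05 over all genes) called 32 of the 60 genes lower and 2 higher in NLGF samples, where 13.3% of all genes were called lower and 12.3% higher. In WT samples 37 were called lower and 2 higher, where 11.3% of all genes were called lower and 10.6% higher. The median log2 fold change of the 60 genes was -0.64 in NLGF samples, against 0.01 over all genes tested, and -0.64 in WT samples, also against 0.01. In bulk tissue, fewer cells of a type and less RNA per cell cannot be told apart.

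The genes called lower in NLGF and in WT samples shared 27 members, which are 27 of the 32 in NLGF and 27 of the 37 in WT. A call in 1 genotype alone was not shown to be a difference between the genotypes, since the difference between the age effects was called for 0 of the 60 genes (1.15% of all genes). Without the 7 deeply sequenced libraries, a fit with 3 NLGF samples at week 3, 29 were called lower and 1 higher in NLGF samples. Of the 32, 27 stayed called lower, and Bgn (-0.13), Col14a1 (0.11), Col5a1 (-0.32), Col6a1 (-0.52) and Lamc3 (-0.45) did not. In that fit Col3a1 fell by 2.92, Eln by 2.95, Col1a1 by 2.75, Col4a1 by 1.66, Col4a2 by 1.44 and Nid1 by 1.40. Hspg2 fell by 0.87, Agrn by 0.84, Lamc1 by 0.78 and Sparc by 0.87, and Col2a1 was higher by 1.18. Without the library labelled NLGF week 3 male 2 the counts were 31 and 2. The 10 values of week 24 all lay below the 10 values of week 3 for 9 genes in NLGF samples (2.02% of all genes) and for 12 genes in WT samples (1.94% of all genes). One gene in NLGF samples, Col2a1, had all week 24 values above those of week 3 (1.05% of all genes).

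**Figure D2:**
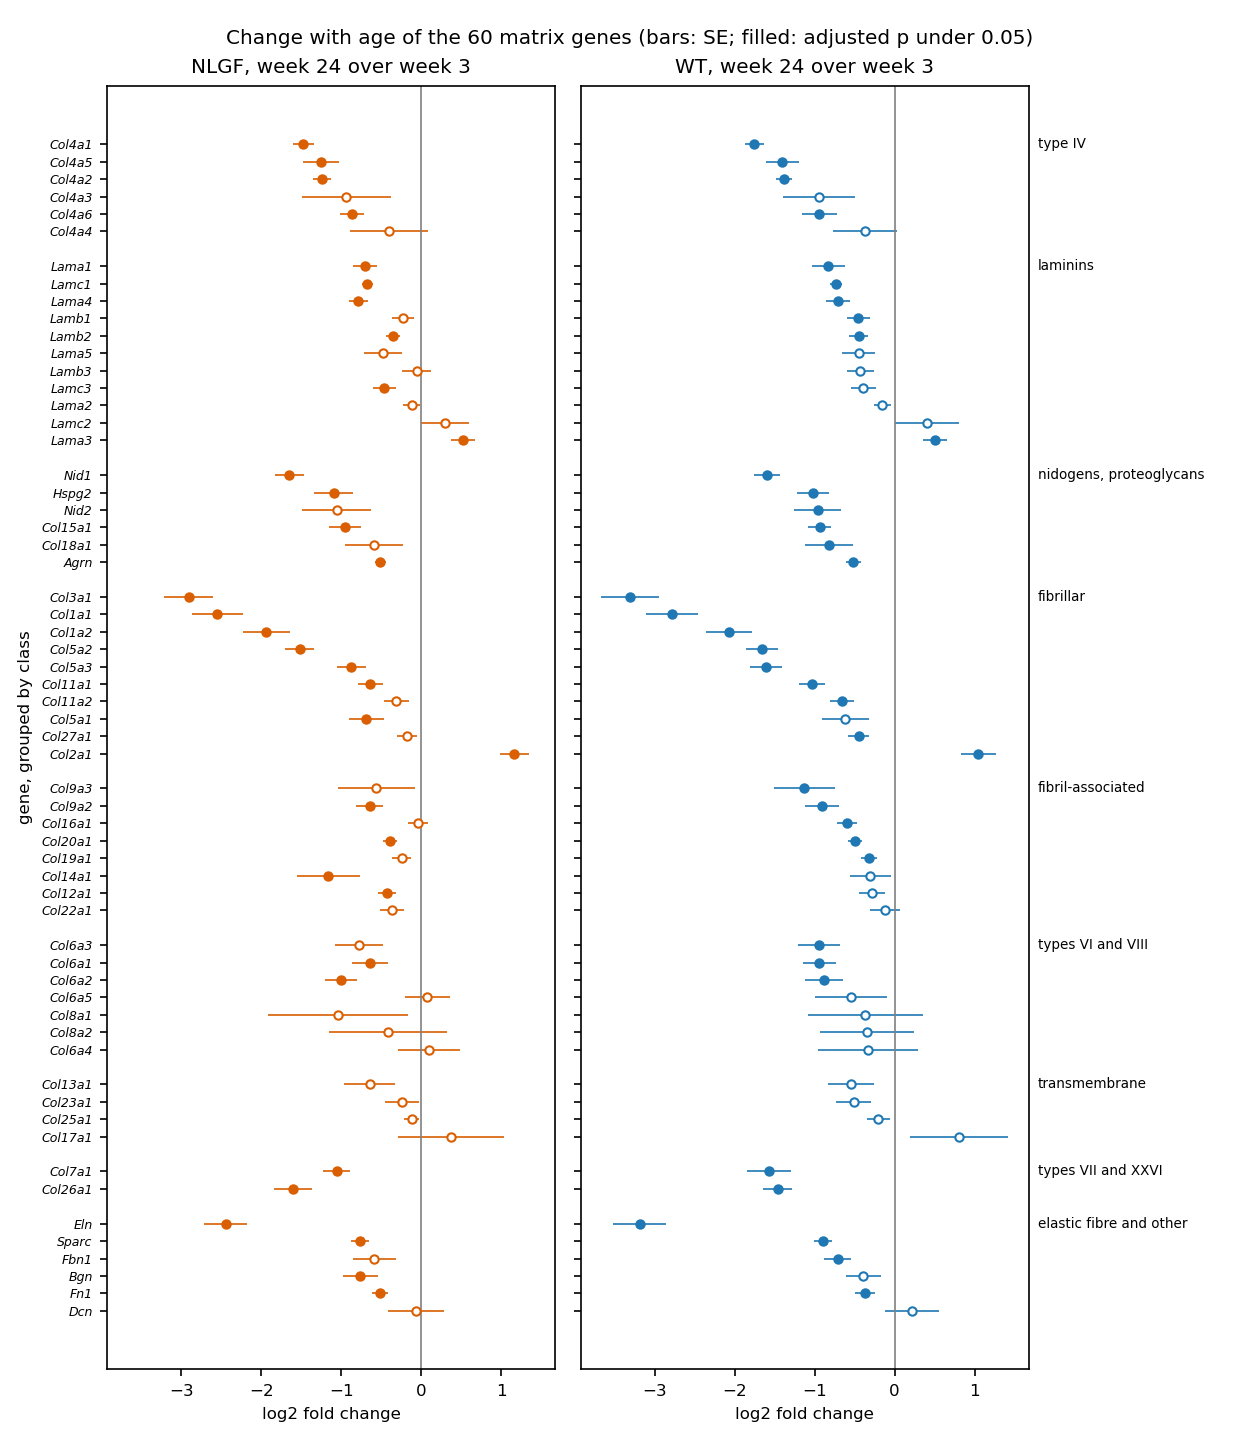
Log2 fold change of week 24 over week 3 for each of the 60 genes, grouped by class, in NLGF samples (left) and WT samples (right), with bars for the standard error and filled points for an adjusted p under 0.05. Most points lie left of 0 in both panels, with Col3a1, Col1a1 and Eln farthest to the left and Col2a1 to the right.

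More genes were called between weeks 8 and 3 than between weeks 24 and 8. Between week 8 and week 3, 19 genes were called lower and 0 higher in NLGF samples (5.51% of all genes lower and 4.9% higher), and 19 lower and 0 higher in WT samples (4.51% of all genes lower and 2.63% higher). The median log2 fold change of the 60 genes was -0.45 in NLGF samples and -0.36 in WT samples in this interval, and -0.17 and -0.30 in the later one. Without the 7 deeply sequenced libraries 17 were called in NLGF samples. Leaving out the library labelled NLGF week 3 male 2 or the one titled NLGF week 8 female 1 also gave 17. Between week 24 and week 8, 4 genes were called lower and 1 higher in NLGF samples, where 0.541% of all genes were called lower and 1.36% higher. In WT samples 4 were called lower and 0 higher, where 0.243% of all genes were called lower and 0.0356% higher. Col3a1, Col4a1 and Col4a2 were called in this later interval in both genotypes, Col4a6 (lower) and Col2a1 (higher) in NLGF samples and Nid1 in WT samples. Leaving out 1 library at a time gave 3 to 7 calls in NLGF samples and 2 to 5 in WT samples. In the 20 such fits of each genotype, Col2a1, Col3a1 and Col4a2 in NLGF samples and Col4a1 and Col4a2 in WT samples were called every time. The call was lost in 12 fits for Col4a1 and in 4 for Col4a6 in NLGF samples, and in 14 for Nid1 and in 3 for Col3a1 in WT samples. Without the library titled NLGF week 8 female 1, 3 genes were called lower and 1 higher, and Col4a1 was no longer called in NLGF samples (log2 fold change -0.49, edgeR adjusted p = 0.0635).

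Col4a1 and Col4a2 encode the α1 and α2 chains of the type IV collagen of nearly every basement membrane. In NLGF samples the lowest, median and highest Col4a1 values, in CPM, were 61.8, 86.7 and 158 (week 3), then 40.0, 48.7 and 59.7 (week 8), and lastly 28.8, 33.5 and 39.9 (week 24). In WT samples, also in CPM, they were 77.9, 107 and 165 (week 3), then 40.6, 46.8 and 75.0 (week 8), and lastly 28.3, 31.2 and 39.8 (week 24). The 3 ages did not overlap in either genotype, while the genotypes overlapped at every age. At week 24 relative to week 3 Col4a1 fell by 1.47 on the log2 scale in NLGF samples (SE 0.13, edgeR adjusted p = 2.59e-09) and by 1.75 in WT samples (SE 0.11, adjusted p = 1.16e-12).

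Col4a2 values in NLGF samples had medians of 84.9, 53.1 and 38.4 CPM at weeks 3, 8 and 24, with a range of 58.8 to 147 CPM at week 3 and of 35.1 to 42.5 CPM at week 24. In WT samples the medians were 95.6, 55.3 and 38.1 CPM, with ranges of 79.5 to 144 and of 32.6 to 45.8 CPM at weeks 3 and 24. The values of week 24 lay below all those of week 3 in both genotypes. Col4a2 fell by 1.24 in NLGF samples (SE 0.12, edgeR adjusted p = 3.06e-09) and by 1.39 in WT samples (SE 0.10, adjusted p = 1.19e-11).

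The 2 chains did not fall by the same amount. The ratio of Col4a1 to Col4a2, each per kb, was 0.796 ± 0.093 at week 24 and 0.929 ± 0.041 at week 3 in NLGF samples (SD, n = 10 each), a difference of -0.133 (2-sided permutation test, adjusted p = 0.0026). In WT samples it was 0.750 ± 0.049 at week 24 and 0.963 ± 0.076 at week 3, a difference of -0.213 (permutation test, p = 2e-05, the smallest that the 100000 resamples can give, adjusted p = 0.0002). The values of the 2 ages did not overlap in WT samples. Tests of this ratio and of the share of Lama3 among laminin α chains, given below, made up 10 tests adjusted together. All were chosen after their values were seen. Without the 7 deeply sequenced libraries the difference in NLGF samples was -0.122, with an adjusted p of 0.157.

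Col4a5 and Col4a6, the pair on chromosome X, were also called lower at week 24 than at week 3 in both genotypes. Col4a5 fell by 1.26 in NLGF samples and by 1.40 in WT samples, and Col4a6 by 0.86 in NLGF samples and by 0.94 in WT samples. Col4a3 and Col4a4, the chains known from the basement membranes of kidney and lung, were not called in any of these comparisons. The log2 fold change of Col4a3 was -0.94 in NLGF samples (SE 0.55) and -0.95 in WT samples (SE 0.45), estimates as large as that of Col4a6 with a wider error. Col4a3 values spread between 0.489 and 8.03 CPM among the 10 NLGF samples and between 0.509 and 3.83 CPM among the 10 WT samples at week 24.

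Nid1, which bridges laminin and type IV collagen, had values between 7.94 and 16.4 CPM (median 9.73) at week 24 and between 21.2 and 56.2 CPM (median 24.7) at week 3 in NLGF samples. In WT samples they ran between 8.00 and 15.3 CPM (median 10.1) at week 24 and between 21.2 and 46.5 CPM (median 31.9) at week 3. The 2 ages were separate in both genotypes. Nid1 fell by 1.65 in NLGF samples (SE 0.19, edgeR adjusted p = 1.31e-07) and by 1.60 in WT samples (SE 0.17, adjusted p = 1.84e-08). Of the 6 genes of the nidogen and basement membrane proteoglycan group, 4 were called lower in NLGF samples and 6 in WT samples at week 24 relative to week 3. Nid2 and Col18a1, the source of the fragment endostatin, made the gap: they had log2 fold changes of -1.06 (SE 0.43) and -0.59 (SE 0.36) in NLGF samples, against -0.96 (SE 0.29) and -0.82 (SE 0.29) in WT samples.

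The core proteins of perlecan and agrin differed in how far they fell. Hspg2 fell by 1.09 in NLGF samples (SE 0.24, edgeR adjusted p = 0.00131) and by 1.02 in WT samples (SE 0.20, adjusted p = 0.000498). Agrn, which is also made by neurons and astrocytes, fell by 0.51 in NLGF samples (SE 0.07, adjusted p = 5.18e-06) and by 0.52 in WT samples (SE 0.09, adjusted p = 9.27e-05). In NLGF samples Agrn lay between 141 and 174 CPM at week 24 and between 194 and 312 CPM at week 3, with no overlap. Its WT values lay between 151 and 216 CPM at week 24 and between 211 and 310 CPM at week 3, and the ages overlapped slightly. Col15a1, a collagen of the outer face of basement membranes, fell by 0.96 in NLGF samples and by 0.94 in WT samples.

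Of the 11 laminin chains, 5 were called lower and 1 higher at week 24 than at week 3 in NLGF samples, and as many in WT samples. Lama1, Lama4, Lamb2 and Lamc1 were called lower in both, with Lamc3 as the fifth in NLGF samples and Lamb1 in WT samples, and for neither was the difference between the genotypes called. The γ1 chain Lamc1, part of most laminin trimers, had a median of 59.3 CPM (54.5 to 70.1) at week 24 and of 92.6 CPM (79.6 to 118) at week 3 in NLGF samples. In WT samples its median was 57.2 CPM (55.5 to 68.6) at week 24 and 101 CPM (74.7 to 118) at week 3. The 2 ages did not overlap in either genotype. Lamc1 fell by 0.67 in NLGF samples (SE 0.07, edgeR adjusted p = 2.11e-08) and by 0.73 in WT samples (SE 0.08, adjusted p = 2.03e-08). The vascular α4 chain Lama4 fell by 0.79 in NLGF samples and by 0.71 in WT samples, the α1 chain Lama1 by 0.71 and by 0.83, and the β2 chain Lamb2 by 0.35 and by 0.45.

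Lama2, the α2 chain that astrocytes and pericytes make, was not called: its log2 fold change was -0.12 in NLGF samples (SE 0.10) and -0.16 in WT samples (SE 0.10). Lama5, an α chain of mature vessels, had -0.48 in NLGF samples (SE 0.23) and -0.45 in WT samples (SE 0.20) and was not called either. Lama3, the α chain of laminin-332, was the laminin called higher. It lay between 5.44 and 12.5 CPM (median 7.34) at week 24 and between 3.62 and 7.38 CPM (median 5.70) at week 3 in NLGF samples. The WT values lay between 5.39 and 12.4 CPM (median 6.80) at week 24 and between 3.97 and 6.94 CPM (median 5.46) at week 3. The ages overlapped in both genotypes. The log2 fold change was 0.52 in NLGF samples (SE 0.15, edgeR adjusted p = 0.00913) and 0.50 in WT samples (SE 0.15, adjusted p = 0.0182). Without the 7 deeply sequenced libraries it was 0.54 in NLGF samples and no longer called (adjusted p = 0.0832).

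As a share of the α-chain level per kb, Lama3 made up 12.2 ± 3.9% at week 24 and 6.995 ± 2.31% at week 3 in NLGF samples (SD, n = 10 each, permutation test, adjusted p = 0.0026). In WT samples it made up 12.3 ± 3.4% at week 24 and 6.99 ± 1.56% at week 3 (permutation test, adjusted p = 0.0003). The genotypes differed by at most 0.27 percentage points in this share at any of the 3 ages. In NLGF samples the adjusted p of the change in share was 0.0699 without the 7 deeply sequenced libraries, with a difference of 5.32 percentage points.

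**Figure D3:**
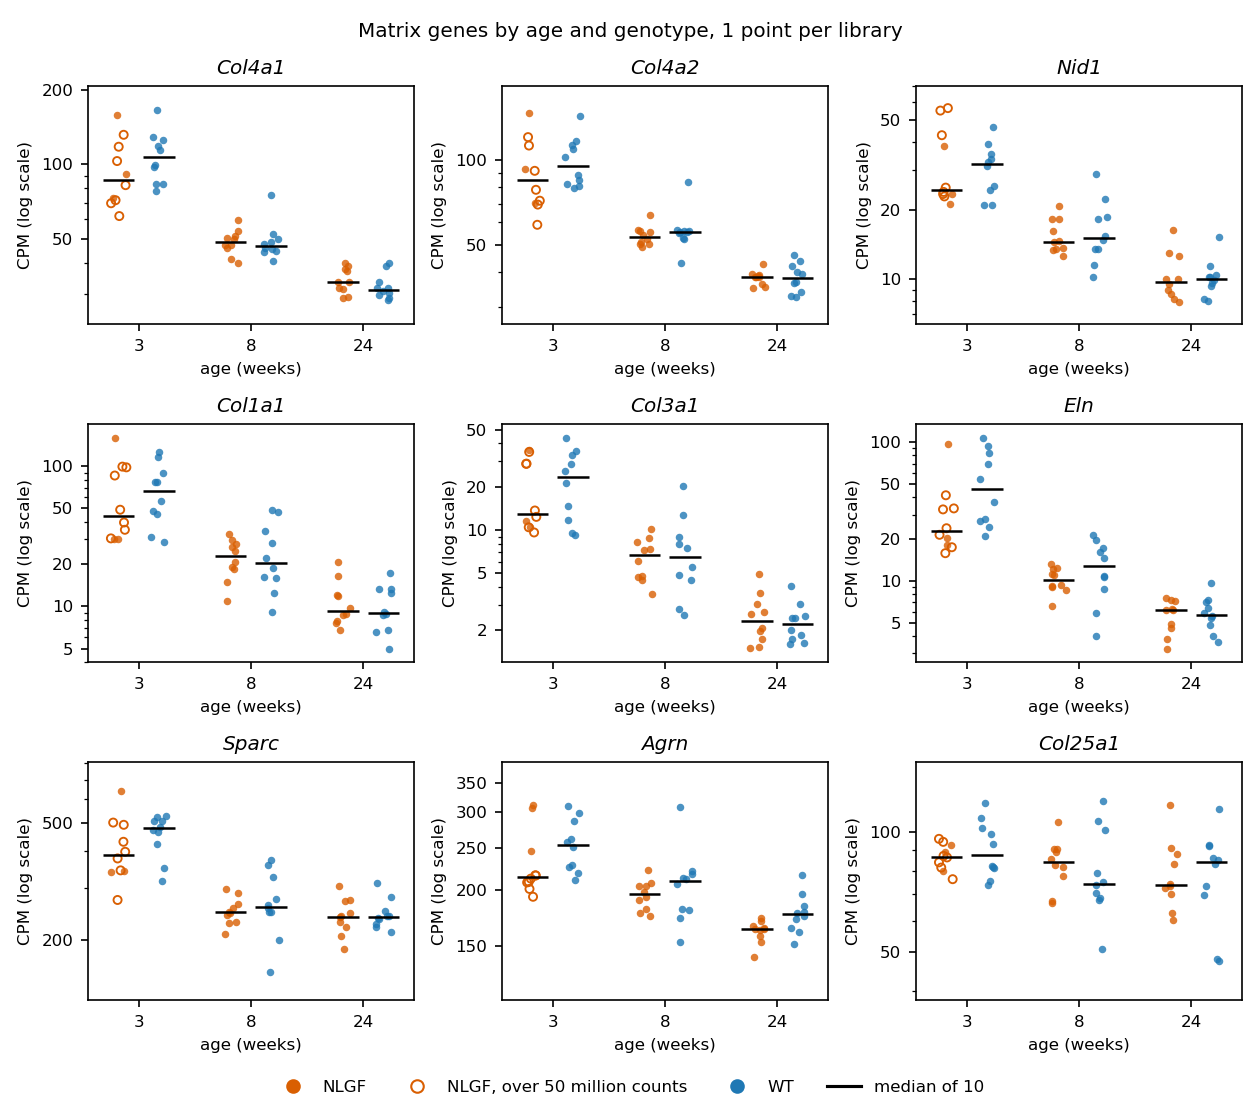
CPM (log axis) of Col4a1, Col4a2, Nid1, Col1a1, Col3a1, Eln, Sparc, Agrn and Col25a1, with 1 point for each of 60 libraries, NLGF left of WT at each age, open points for NLGF libraries of over 50 M counts and lines for the median of 10. Medians are lower at week 24 than at week 3 in both genotypes for every gene shown, least so for Col25a1, and NLGF and WT points overlap at every age.

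The largest declines with age were in fibrillar collagens and in elastin. Col3a1, the single chain of type III collagen, lay between 1.501 and 4.90 CPM (median 2.33) at week 24 and between 9.61 and 36.0 CPM (median 12.99) at week 3 in NLGF samples. WT values lay between 1.61 and 4.10 CPM (median 2.22) at week 24 and between 9.27 and 43.7 CPM (median 23.4) at week 3. No week 24 library reached a week 3 value of its genotype. Col3a1 fell by 2.91 on the log2 scale in NLGF samples (SE 0.30, edgeR adjusted p = 4.83e-08) and by 3.31 in WT samples (SE 0.36, adjusted p = 1.06e-07).

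Col1a1 and Col1a2 are the chains of type I collagen. Col1a1 had medians of 44.3, 22.8 and 9.28 CPM at weeks 3, 8 and 24 in NLGF samples, and of 66.9, 20.5 and 8.94 CPM in WT samples. It fell by 2.55 in NLGF samples (SE 0.32, edgeR adjusted p = 1.02e-06) and by 2.78 in WT samples (SE 0.33, adjusted p = 4.13e-07). Col1a2 fell by 1.94 in NLGF samples and by 2.07 in WT samples, and Col5a2, a chain that sets fibril diameter, by 1.52 and by 1.65. Of the 10 fibrillar collagens, 7 were called lower in NLGF samples and 8 in WT samples.

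Col2a1, the cartilage collagen, was the fibrillar collagen called higher at week 24. It lay between 0.990 and 1.91 CPM (median 1.49) at week 24 and between 0.212 and 0.913 CPM (median 0.717) at week 3 in NLGF samples. In WT samples the values lay between 0.691 and 2.18 CPM (median 1.39) at week 24 and between 0.296 and 1.17 CPM (median 0.674) at week 3. The ages were separate in NLGF samples and overlapped in WT samples. The log2 fold change was 1.16 in NLGF samples (SE 0.18, edgeR adjusted p = 1.65e-05) and 1.05 in WT samples (SE 0.21, adjusted p = 0.000558).

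Eln encodes elastin, the core of elastic fibres in artery walls. It had medians of 22.7, 10.2 and 6.20 CPM at weeks 3, 8 and 24 in NLGF samples, and of 45.5, 12.7 and 5.69 CPM in WT samples. Eln fell by 2.45 in NLGF samples (SE 0.27, edgeR adjusted p = 1.24e-07) and by 3.19 in WT samples (SE 0.33, adjusted p = 4.86e-08), with no overlap between weeks 24 and 3 in either. The difference between these age effects was 0.79 (SE 0.41, adjusted p = 0.390).

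Sparc had medians of 389, 249 and 241 CPM at weeks 3, 8 and 24 in NLGF samples, and of 479, 260 and 239 CPM in WT samples. It fell by 0.76 in NLGF samples (SE 0.11, edgeR adjusted p = 6.32e-06) and by 0.90 in WT samples (SE 0.12, adjusted p = 8.05e-07). Between weeks 24 and 8 its log2 fold change was -0.05 in NLGF samples and -0.15 in WT samples. Fn1 fell by 0.52 in NLGF samples (SE 0.10, adjusted p = 0.000294) and by 0.37 in WT samples (SE 0.12, adjusted p = 0.0278). Fbn1 (fibrillin-1, the scaffold of microfibrils) was called lower in WT samples, with a log2 fold change of -0.59 in NLGF samples (SE 0.27) and -0.71 in WT samples (SE 0.17). The small proteoglycan biglycan, Bgn, was called lower in NLGF samples, with -0.76 (SE 0.22), against -0.39 in WT samples (SE 0.22). Its relative decorin, Dcn, was not called in either genotype, with -0.06 in NLGF samples (SE 0.35) and 0.21 in WT samples (SE 0.34).

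Of 8 fibril-associated collagens, 4 were called lower in NLGF samples and 5 in WT samples at week 24 relative to week 3, and of 7 network collagens of types VI and VIII, 2 and 3. The beaded-filament chains Col6a1 and Col6a2 fell by 0.65 and by 1.00 in NLGF samples and by 0.94 and by 0.89 in WT samples. Col7a1, the anchoring fibril collagen, fell by 1.06 in NLGF samples and by 1.57 in WT samples, and Col26a1 by 1.60 and by 1.46. None of the 4 transmembrane collagens was called in either genotype at an adjusted p under 0.05.

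Col25a1, a neuronal transmembrane collagen whose shed ectodomain is a known component of amyloid plaques, had nearly level values. In NLGF samples its lowest, median and highest values, in CPM, were 76.1, 86.7 and 96.0 (week 3), then 66.3, 84.0 and 106 (week 8), and lastly 60.3, 73.6 and 117 (week 24). The WT values, also in CPM, were 73.7, 87.5 and 118 (week 3), then 51.0, 74.2 and 119 (week 8), and lastly 47.5, 84.2 and 114 (week 24). All 6 groups overlapped. At week 24 NLGF over WT gave a log2 fold change of 0.01, with a 95% interval of -0.29 to 0.30.

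Genes that act on these proteins were tested in the same fits, where 13.3% of all genes were called lower in NLGF samples and 11.3% in WT samples. Of 31 genes for folding, modifying and crosslinking collagen, 14 were called lower in NLGF samples and 13 in WT samples at week 24 relative to week 3. Serpinh1, the collagen chaperone, fell by 1.06 in NLGF samples and by 1.12 in WT samples, and Loxl2, which crosslinks type IV collagen, by 1.76 and by 1.47. Of 16 matrix proteases and inhibitors tested, 9 were called lower in NLGF samples and 7 in WT samples, with the proteoglycan-cleaving Adamts4 falling by 1.30 in NLGF samples and by 1.63 in WT samples. Of the receptors, 7 of 29 tested were called lower and 3 higher in NLGF samples, and 11 of 28 lower and 1 higher in WT samples. The receptors called higher were no more than the share over all genes would give, 12.3% in NLGF samples and 10.6% in WT samples. The collagen receptor Ddr1 fell by 0.62 in NLGF samples and by 0.92 in WT samples, and the integrin subunit Itgb1 by 0.52 and by 0.77.

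Markers of the cells that make these proteins were counted in the same interval, again beside 13.3% of all genes called lower in NLGF samples and 11.3% in WT samples. Endothelial markers were called lower for 11 of 16 in NLGF samples and 8 of 16 in WT samples, mural markers for 6 of 12 and 3 of 12, and fibroblast markers for 10 of 24 and 2 of 22, the last below the share over all genes. The 2 fibroblast markers called lower in WT samples were Slc6a13 and Pdgfra. The NLGF counts rest in part on the 7 deeply sequenced libraries of week 3 and were not repeated without them. Summed fibroblast marker CPM ran between 287 and 1055 in those 7 and between 243 and 387 in the other 3 NLGF libraries of week 3. Summed endothelial marker CPM ran between 333 and 409 at week 24 and between 420 and 575 at week 3 in NLGF samples. The WT sum ran between 355 and 462 at week 24 and between 385 and 555 at week 3. The summed mural marker CPM ran between 248 and 296 at week 24 and between 277 and 439 at week 3 in NLGF samples, and between 255 and 341 at week 24 and between 271 and 464 at week 3 in WT samples. Tagln, a smooth muscle marker, was at 0 in 38 libraries. The part of these cells in the decline was not tested. Markers of fibroblasts and of the choroid plexus were added to the fits as covariates. Such a covariate cannot separate cell content from age where the markers change with age themselves. Median summed fibroblast marker CPM was 365 at week 3 and 252 at week 24 in NLGF samples, and 448 and 237 in WT samples. With the fibroblast markers as a covariate, 28 matrix genes were called lower in NLGF samples and 33 in WT samples. With the choroid plexus markers the counts were 37 and 38. The median log2 fold change of the matrix genes in NLGF samples was -0.64 without a covariate. It was -0.26 with the fibroblast markers and -0.50 with the choroid plexus markers. In WT samples the corresponding medians were -0.64, -0.54 and -0.65.

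Some collagens were highest in the libraries with the most choroid plexus RNA. Col8a1 and Col8a2 (type VIII collagen), Col9a3, Col4a3, Col4a4 and Col17a1 were among the 7 genes that varied most, with a median coefficient of variation within groups of 119% for Col8a1, the highest, and of 11.04% for Lamc1, the lowest. In the library with the most choroid plexus RNA of the NLGF week 24 group, female 3, Col8a1 was at 68.2 CPM, against a median of 3.65 CPM in the 9 others. In the corresponding WT week 24 library, male 4, it was at 33.4 CPM, against a median of 2.77 CPM in the 9 others. The same 2 libraries held the highest value of their group for 33 and 30 of the 60 genes, and they also had the highest summed fibroblast markers of their groups, 893 and 664 CPM. At week 8 the library with the most choroid plexus RNA held the highest value for 20 genes in NLGF samples and 30 in WT samples, and at week 3 for 8 genes in each genotype. In NLGF samples at week 3 that library, female 1, had 89.3 CPM of Col8a1, and the highest Col8a1 of the group, 95.7 CPM, was in the library labelled male 2, which also exceeded female 1 for Col8a2, Col9a3, Col4a3 and Col4a4. More of the 60 genes were highest at week 3 in other libraries. These were NLGF male 1 (26 genes, choroid plexus markers at 796 CPM) and WT male 3 (26 genes, 3126 CPM). The share of all genes that were highest in each of these libraries was not counted. For Col4a1 at week 24, NLGF female 3 held the highest value of its group, 39.9 CPM, close to the next highest, 38.8 CPM. WT male 4 likewise held the top Col4a1 value of its week 24 group, 39.8 CPM, with 39.0 CPM as the next.

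**Figure D4:**
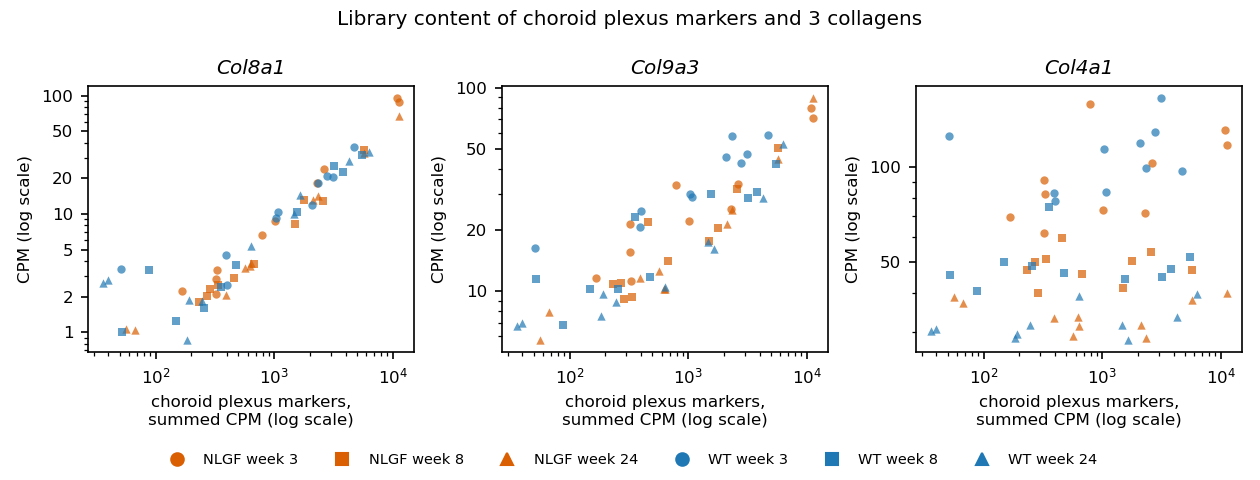
CPM of Col8a1, Col9a3 and Col4a1 against the summed CPM of the 14 choroid plexus markers in each of 60 libraries, both axes logarithmic, by genotype and age. Col8a1 and Col9a3 rise along the marker axis in every group, while Col4a1 lies in bands by age.

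Between the genotypes, calls among these genes were made at week 3. At that age, 0 genes were called higher and 2 lower in NLGF than in WT samples, where 3.78% of all genes were called (1.67% higher and 2.11% lower). The 2 calls among 60 are about that share. Neither held without the deeply sequenced libraries: without those 7, which leaves 3 NLGF samples against 10 WT samples, 0 of the 60 genes and 0 of all genes were called. Without the library labelled NLGF week 3 male 2 the 1 call was Col16a1. Genotype and this kind of library, which differed in Bc1 as well as in depth, cannot be told apart in those 7. The median log2 fold change of the 60 genes at week 3 was -0.11, against 0.01 over all genes. At an unadjusted p under 0.05, 7 of the 60 passed, where 22% of all genes did.

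Col16a1, a fibril-associated collagen, lay between 3.57 and 7.15 CPM (median 5.32) in NLGF samples and between 5.08 and 9.39 CPM (median 7.58) in WT samples at week 3. The groups overlapped. Col16a1 was lower by 0.52 on the log2 scale in NLGF than in WT samples at week 3 (SE 0.11, edgeR adjusted p = 0.023). Without the 7 libraries this log2 fold change was -0.32 (edgeR adjusted p = 0.467). At week 24 NLGF over WT gave a log2 fold change of 0.04 (SE 0.11), and the change between weeks 24 and 3 in this effect was 0.56 (SE 0.17, adjusted p = 0.106).

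Lamb3 lay between 0.892 and 1.55 CPM (median 1.03) in NLGF samples and between 1.202 and 2.56 CPM (median 1.51) in WT samples at week 3. The groups overlapped here too. Its log2 fold change was -0.53 (SE 0.15, edgeR adjusted p = 0.048), and the call was lost in 16 of 20 fits that left out 1 library. Without the 7 libraries it was -0.39 (adjusted p = 0.570). Eln (-0.85), Col7a1 (-0.58) and Bgn (0.52) passed at an unadjusted p only. The authors' deposited table for week 3 lists Col16a1 with a log2 fold change of -0.32 (adjusted p = 0.00116), Lamb3 with -0.23 (0.0214), Eln with -0.24 (0.0292) and Col7a1 with -0.19 (0.0457). No other of the 60 genes is listed at any age in the authors' deposited table. In it the standard error for Eln, 0.26, exceeds the size of its log2 fold change. How the authors scaled their fold changes was not examined, so their sizes are not set against those of edgeR.

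At week 8, edgeR called 0 of the 60 genes and 0% of all genes between NLGF and WT samples, and 0 of both without the library titled NLGF week 8 female 1. An unadjusted p under 0.05 was reached by 3 of the 60 (7.83% of all genes), which were Lama4 at -0.23, Col6a2 at -0.36 and Col6a4 at -0.98. Estimates lay below 0 for 49 of the 60 genes (81.7%), against 51.9% of all genes, with a median of -0.13. Summed fibroblast marker CPM had a median of 261 in NLGF samples and 320 in WT samples at this age. The medians of the other summed markers were 565 in NLGF and 418 in WT samples for the choroid plexus, 430 and 422 for the endothelium and 310 and 312 for mural cells. The median log2 fold change of the 60 genes was -0.09 with the fibroblast markers as a covariate and -0.14 with the choroid plexus markers. The other markers were not used as covariates, and the part of any of these cells was not tested.

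At week 24, when NLGF samples had 10 of 13 microglial markers called higher, 0 of the 59 matrix genes tested were called, where 0.878% of all genes were. The microglial gene Itgax was higher by 3.89 on the log2 scale in NLGF samples (SE 0.20, edgeR adjusted p = 4.68e-11) and Trem2 by 1.18. Agrn (-0.14, SE 0.05, adjusted p = 0.404) and Fn1 (-0.25, SE 0.10, adjusted p = 0.448) had the smallest p-values of the 59. An unadjusted p under 0.05 was reached by these 2 alone, where 8.99% of all genes reached it. Agrn lay between 141 and 174 CPM (median 164) in NLGF samples and between 151 and 216 CPM (median 177) in WT samples, and Fn1 between 61.8 and 106 CPM (median 78.7) and between 76.4 and 121 CPM (median 98.6). Both genes overlapped between the genotypes.

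The data bound the genotype effect at week 24 tightly for the abundant vascular genes and loosely for those that vary most between libraries. For NLGF over WT the 95% interval of the log2 fold change was -0.07 to 0.23 for Col4a1, -0.12 to 0.11 for Col4a2, -0.10 to 0.10 for Lamc1 and -0.16 to 0.13 for Sparc. It was -0.22 to 0.30 for Nid1 and -0.38 to 0.47 for Hspg2. For Col8a1 it was -1.58 to 1.75, which covers sizeable changes in either direction. The genes for collagen processing, the proteases and the receptors had 0 calls between the genotypes at any age.

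**Figure D5:**
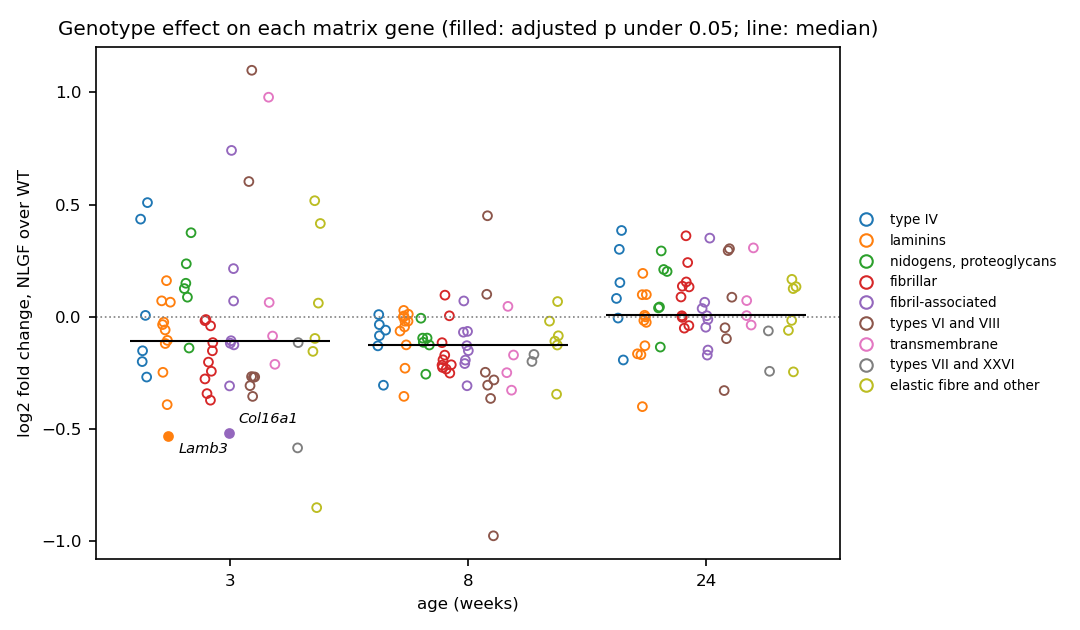
NLGF over WT (log2 fold change) for each of the 60 genes at weeks 3, 8 and 24, coloured by class, with filled points for an adjusted p under 0.05 and lines for the median of the genes. Only Col16a1 and Lamb3 at week 3 are filled, and the points lie mostly below 0 at week 8.

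The genotype effect did not change detectably between ages for any of the 60 genes. Tested on all 60 samples, the difference in effect was called for 0 genes between weeks 8 and 3 (0.18% of all genes), 0 between weeks 24 and 8 (0.31%) and 0 between weeks 24 and 3 (1.15%). At an unadjusted p under 0.05, 2, 1 and 2 of the 60 genes passed, where 7.26%, 3.85% and 13.5% of all genes did. The smallest adjusted p-values were those of Col16a1 between weeks 8 and 3 (0.39, adjusted p = 0.598), Col27a1 between weeks 24 and 8 (0.49, adjusted p = 0.848) and Col16a1 between weeks 24 and 3.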

How the data were processed

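The authors deposited raw counts per gene symbol for 60 libraries, which per the labels' protocols came from rRNA-depleted total RNA. FastQC, STAR, edgeR, DESeq2 and mm10 are named without versions in the submitters' processing notes; the read counter, the annotation and whether strand was used were not given in the sources used here, so overlapping and antisense genes cannot be told apart from the genes named. A second table deposited by the authors lists genes they called between the genotypes, with a signal (mean normalized count), a log2 fold change (NLGF over WT) and p-values, per the file headers.

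Counts were analysed in R 4.3.3 with edgeR 4.0.16 (filterByExpr with a minimum count of 10, TMM, robust quasi-likelihood F-test, 2-sided, Benjamini-Hochberg over all genes tested, threshold 0.05). Genotypes were compared among the 20 samples of an age and ages among the 30 samples of a genotype, with sex as a covariate. Differences of the genotype effect between ages used all 60 samples and a sex term for each age. Each standard error is the log2 fold change over the root of its F statistic, and 95% intervals are 1.96 standard errors to each side. CPM used TMM-scaled totals over 60 libraries, and levels per kb used the union exon length of GENCODE vM21. Ratios and shares were compared by 2-sided permutation tests. The fits were tested on simulated data. Alternatives were RLE scaling, DESeq2 1.42.0, other filters, no sex term, a block for sex and replicate number, marker covariates and libraries left out. Coordinates are those of mm10 (GRCm38). The genes named are a set of 26, the called genes with the largest fold changes (up to 8 in each direction), the 3 with the smallest p-values where none was called, and up to 3 genes of each pathway or marker list; a few others, among them Col4a3, Col4a5, Col8a1 and the Col4a4 window, were chosen after their values were seen. The members and lists were chosen with earlier results of these data known.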

Additional observations from a re-analysis of the deposited data

Results flagged for a closer look

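Among the 26 genes named by rule, 156 sets of 10 values (each gene in each genotype and age) were checked for a library far from the other 9, and 20 were found. The limit used flags about 1 set in 20 where values are independent and follow a normal distribution. CPM values need not do so, and the 26 genes share libraries, so that rate may not hold here. Whether 20 exceeds chance was not tested. NLGF week 24 female 3, with summed choroid plexus markers of 11290 CPM, was the highest library of its group by such a gap for Nid2 (30.2 CPM), Col1a2 (32.4 CPM) and Col18a1 (31.4 CPM). WT week 24 male 4, with 6291 CPM of these markers, was the highest for Lama1 (10.9 CPM), Lama5 (38.5 CPM), Nid1 (15.3 CPM), Hspg2 (70.9 CPM), Col1a2 (29.1 CPM) and Col18a1 (20.3 CPM). NLGF week 8 male 4 (5772 CPM of these markers) was the highest for Fbn1 (28.2 CPM), and WT week 8 female 3 (5480 CPM) for Bgn (40.1 CPM).

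In other libraries the gap came without high choroid plexus markers. WT week 8 female 1, at 355 CPM of them, was the highest of its group for Col4a1 (75.0 CPM), Col4a2 (83.2 CPM), Lamc1 (97.5 CPM) and Agrn (309 CPM). NLGF week 3 male 1 was the highest for Col1a1 (160 CPM) and Eln (96.3 CPM), NLGF week 8 female 5 for Col4a2 (64.0 CPM) and NLGF week 24 male 3 for Lamc1 (70.1 CPM). WT week 8 male 4 was the lowest of its group for Lama4 (6.04 CPM). What sets these libraries apart was not tested.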

How the results depend on the processing

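Numbers here count the called genes among the 60. The 2 calls between the genotypes at week 3 became 1 with no filter on low counts, with the replicate block, with the fibroblast covariate, with the choroid plexus covariate and without the library labelled NLGF week 3 male 2, and 0 without the 7 deeply sequenced libraries. Leaving out 1 library gave 0 to 4 calls, with 0 without NLGF week 3 female 4 or female 5 and 4 without NLGF week 3 female 2 or male 1. Over all genes, DESeq2 called 1486 genes at week 3 and edgeR 628. Between weeks 24 and 8, NLGF samples had 5 calls, against 9 by DESeq2, 9 with the fibroblast covariate, 8 with the choroid plexus covariate and 3 to 7 with 1 library left out. Their count was 3 without NLGF week 8 female 2, week 8 male 1, week 24 female 2 or week 24 female 4. WT samples had 4 calls there, against 8 by DESeq2, 2 with the replicate block and 2 to 5 with 1 library left out. Their count was 2 without WT week 8 female 2, WT week 24 female 3 or WT week 24 male 1. The difference of the genotype effect between weeks 24 and 3 gave 0 or 1 call with 1 library left out, the 1 being Col16a1 without NLGF week 3 male 1. The other counts of called genes stayed within 1.5 times under every alternative run. DESeq2, too, called 0 of the 60 between the genotypes at weeks 8 and 24 and 0 for each difference of the genotype effect between ages. The cause was not tested.

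Several log2 fold changes near 0, none of them called, turned sign. Without the 7 deeply sequenced libraries the effect of NLGF over WT at week 3 was 0.00822 for Col4a1, 0.0626 for Col4a2 and 0.23 for Agrn, and the difference between weeks 8 and 3 was 0.0714 for Col14a1. Col25a1 at week 8 was -0.0038 without the library titled NLGF week 8 female 1, and at week 24 -0.0045 with the fibroblast covariate and -0.010 with the choroid plexus covariate. Col4a2 at week 24 was 0.00047 with the replicate block. With 1 library left out, Col4a1 at week 8 ran between -0.0638 and 0.0433, Col25a1 at week 8 between -0.00427 and 0.114 and at week 24 between -0.0783 and 0.103, and Col4a2 at week 24 between -0.0278 and 0.0294. The difference in the Lama3 share between the genotypes ran between -0.446 and 0.334 percentage points at week 3, between -0.193 and 0.759 at week 8 and between -0.846 and 0.636 at week 24, and at week 3 it was -0.0856 without the 7 libraries.

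Replicate numbers were not taken to pair these samples, since not every pair exceeded a correlation of 0.1 (2 of 10 pairs at week 3, 3 at week 8 and 7 at week 24 did). This rule does not exclude a pairing, least of all at week 24. With the replicate block, 0 matrix genes were called between the genotypes at that age. The correlations of the deviations of same-numbered NLGF and WT samples ran between -0.199 and 0.254 at week 3, -0.100 and 0.232 at week 8 and -0.063 and 0.459 at week 24. Depth, at 17.8 M counts in the smallest library, limits genes near 1 CPM such as Lamb3 and Col2a1, whose counts per library are low.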
